A study of Homo sapiens with 64 samples.

Results

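The genes described are 6 regulators of G protein signalling, RGS2, RGS3, RGS4, RGS16, RGS17 and RGS20, in BEAS-2B cells, an established line of human bronchial epithelium immortalised with viral genes. They were taken as every probe set on the array that the platform annotation assigns to 1 of these 6 symbols, which gave 13 of the 54675 probe sets and 6 of the 19775 genes tested. Confluent cultures received vehicle, indacaterol at 10 nM, GSK 256066 (GSK below) at 10 nM, or both drugs at 10 nM each, for 1, 2, 6 or 18 h. Each of the 16 groups had 4 arrays, 64 in all, numbered as replicates 1 to 4. Before treatment all cultures, vehicle included, were kept in serum-free keratinocyte medium, with growth factor and pituitary extract first and without these supplements for the last day. Nothing in the labels says what a replicate number stands for, so the p-values measure the spread between these arrays, which may be technical.

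Receptors that couple to G proteins signal through an alpha subunit that is active while it holds GTP, and RGS proteins speed the hydrolysis of that GTP, which ends the signal. RGS2 acts mainly on alpha subunits of the Gq class, which drive phospholipase C, calcium release and airway smooth muscle contraction. Indacaterol activates the beta2-adrenoceptor, which couples to Gs and raises cyclic AMP, and GSK 256066 inhibits the PDE4 enzymes that break cyclic AMP down. Of the other members, RGS3, RGS4 and RGS16 belong with RGS2 to the same subfamily and act on Gi and Gq subunits, while RGS17 and RGS20 belong to a subfamily known for acting on Gz and other Gi-class subunits. The comparisons below ask how each transcript differed with either drug, with their combination, and over time.

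RGS2 lies on chromosome 1 from 192809039 to 192812275, RGS4 on chromosome 1 from 163068871 to 163076802, RGS16 on chromosome 1 from 182598623 to 182604389, RGS3 on chromosome 9 from 113444730 to 113597738 and RGS17 on chromosome 6 from 153004459 to 153131282, all in the RefSeq annotation of GRCh38.p14. Cyclic AMP is known to act on promoters through the cyclic AMP response element, an 8-base motif, TGACGTCA, whose 5-base form, TGACG or CGTCA on the other strand, also occurs alone. The 250 bases before the RefSeq start of RGS2 (chr1:192808789-192809038, plus strand) are shown because RGS2 was the member that rose with indacaterol, with the 5-base form in capitals, and the stretches of RGS3 and RGS4 that hold it stand beside it for comparison.
RGS2: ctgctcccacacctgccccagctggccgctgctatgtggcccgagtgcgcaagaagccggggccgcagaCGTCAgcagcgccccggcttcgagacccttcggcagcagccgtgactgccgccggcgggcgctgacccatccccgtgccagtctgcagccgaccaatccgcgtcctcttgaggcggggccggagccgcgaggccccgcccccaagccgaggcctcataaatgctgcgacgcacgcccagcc
RGS3: ctcatgccaggcTGACGggtcc
RGS4: acattgctgatgCGTCAgtcttttcttcct

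In RGS2 the CGTCA began 181 bases before the start. In RGS3 it was held by 1 of 5 RefSeq windows, 10 bases before that start, and in RGS4 by 2 of 4, 32 and 139 bases before their starts, at the same genomic place. The single windows of RGS16 and RGS17 held neither form, and the 8-base form was in no window of RGS2, RGS3, RGS4, RGS16 or RGS17. Of 34943 RefSeq windows of 300 bases, 250 before and 50 after a start, 24.5% held the 5-base form on either strand and 1.84% the 8-base form, which contains the shorter one. A match is only a match of letters.

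The arrays had similar overall brightness, with medians over probe sets between 101.2 and 127.4. Among 8 listed markers of airway epithelium, KRT8 and KRT18, keratins of simple epithelium, were bright on all 64 arrays, while the adhesion genes EPCAM and CDH1 and the keratin KRT19 had medians of 68.0, 244 and 0.0277 outside replicate 3. The fibroblast markers COL1A1 and THY1 were bright too (medians 8818 and 1419), and the other 5 of that list, COL1A2, COL3A1, DCN, LUM and PDGFRA, had medians of 73.8 to 142. Among leukocyte markers PTPRC read 14.8 to 42.4 and LYZ 198 to 514, and among endothelial markers CDH5 read 2.15 to 20.6 and PECAM1 414 to 699, so neither list was at 0 throughout. Of the smooth muscle markers, MYH11 and ACTA2 had medians of 840 and 819, and DES and CNN1 had medians of 191 and 29.9. The 16 arrays numbered replicate 3 stood apart: KRT14, a basal-cell keratin, had a median of 321210 there and at most 35.3 on the other 48. KRT5 and KRT7 had medians of 32470 and 6480 in replicate 3 against 154 and 563 elsewhere. The part of this difference in any result below was not tested beyond giving results without replicate 3.

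RGS2 rose with indacaterol at 1 h and 2 h, alone and together with GSK. Its signal, the authors' deposited probe-set intensity on a linear scale, was 2008, 1499, 1082 and 1663 in replicates 1 to 4 of vehicle at 1 h, and 10176, 5921, 6498 and 5328 with indacaterol. With both drugs at 1 h it was 9669, 5730, 6748 and 5421. Every one of these 8 treated arrays lay above every vehicle array, and replicate 1 was highest in both treated groups. The difference in log2(signal + 16) between indacaterol and vehicle at 1 h was 2.14 ± 0.28 (SE, n = 4 each, 95% interval 1.57 to 2.70), with an adjusted p of 2.09e-06 by limma with Benjamini-Hochberg adjustment over all genes. Among all genes this was the 8th highest rise. Calls below are adjusted p-values under 0.05 from that model, in which the standard errors come from all 64 arrays.

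At 2 h the vehicle arrays read 1221, 1221, 734.8 and 1049 for RGS2, and the indacaterol arrays 7679, 4224, 4658 and 3696. Both drugs gave 7131, 3923, 4707 and 3610. Again the treated and vehicle arrays did not overlap. Each array was below the array of its own treatment and number at 1 h, although the ranges at 1 and 2 h overlapped. The difference for indacaterol was 2.21 ± 0.28 on the log2 scale (limma adjusted p = 2.92e-07), the 12th highest rise among all genes. For both drugs it was 2.12 ± 0.28 at 1 h (limma adjusted p = 2.39e-06) and 2.16 ± 0.28 at 2 h (limma adjusted p = 5.35e-07). RGS2 was the 1 called member of 6 in these 4 comparisons, where 0.212% of all genes were called with indacaterol at 1 h, 1.2% at 2 h, 0.283% with both drugs at 1 h and 1.05% at 2 h. Without replicate 3 the indacaterol differences were 1.99 (limma adjusted p = 0.000103) at 1 h and 2.07 (limma adjusted p = 1.97e-05) at 2 h, and those of both drugs 1.96 and 1.99 (limma adjusted p = 0.000154 and 3.84e-05).

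**Figure D1:**
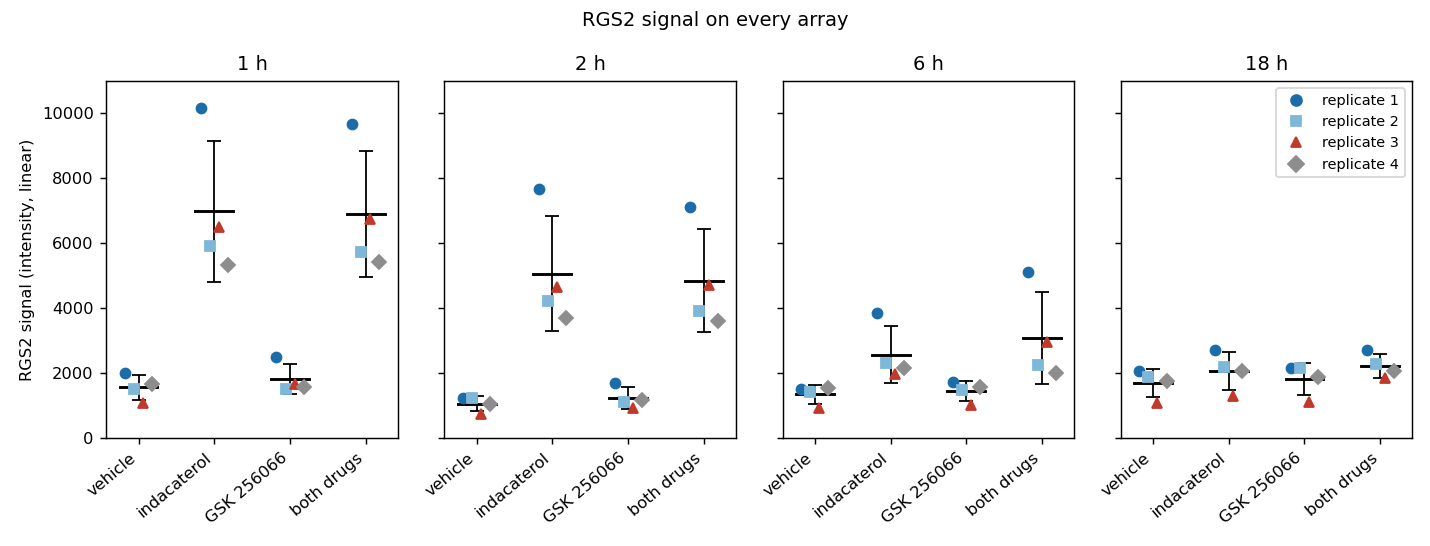
RGS2 signal (linear intensity) on each of the 64 arrays, by treatment and time, with 1 marker per replicate number, the group mean as a bar and its SD (n = 4) as an error bar. Arrays with indacaterol, alone or with GSK 256066, sit between 3610 and 10176 at 1 and 2 h, above every vehicle array of those times, and come close to vehicle at 18 h.

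By 6 h the RGS2 signal with indacaterol was 3863, 2296, 1964 and 2146, against 1516, 1406, 910.1 and 1536 with vehicle. Both drugs gave 5115, 2230, 2964 and 2004. The treated arrays still lay above all 4 vehicle arrays, but the lowest of them by a small margin. For both drugs the difference was 1.12 ± 0.28 (limma adjusted p = 0.0322; 0.759% of all genes were called), and for indacaterol alone 0.90 ± 0.28, which did not pass (limma adjusted p = 0.279; 0.273% of all genes were called). Same-numbered arrays deviated together in these comparisons, and with the replicate number as a block limma called both, with adjusted p = 7.78e-06 for both drugs (5.27% of all genes called) and 0.000489 for indacaterol (2.31% of all genes called). The call for both drugs without the block was lost whenever 1 replicate number was left out, at differences of 0.91, 1.27, 0.93 and 1.36 without replicates 1, 2, 3 and 4 and limma adjusted p-values of 0.107, 0.184, 0.199 and 0.0932. It was also lost without single arrays: vehicle replicate 2 (1.15) or 3 (0.94), or both-drugs replicate 1 (0.84) or 3 (1.10).

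At 18 h RGS2 read 2059, 1877, 1081 and 1750 with vehicle, 2709, 2180, 1286 and 2068 with indacaterol and 2706, 2288, 1830 and 2060 with both drugs. These groups overlapped. Each treated array was above the vehicle array of its own number, by ratios of 1.16 to 1.32 with indacaterol and 1.18 to 1.69 with both drugs. The differences of 0.27 ± 0.28 and 0.41 ± 0.28 were not called by limma, with or without the block (adjusted p = 1.0 in both without it; 0.00506% and 0.0354% of all genes were called). Without the block, 1 of the 6 members, RGS16, had an unadjusted p under 0.05 in each of these comparisons.

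The size of the RGS2 ratio differed with the replicate number. Indacaterol over vehicle was 5.07, 3.95, 6.01 and 3.2 at 1 h and 6.29, 3.46, 6.34 and 3.52 at 2 h, for replicates 1 to 4. At 6 h the same ratio was 2.55, 1.63, 2.16 and 1.4. Replicates 1 and 3 thus gave the higher ratios at 1, 2 and 6 h, and replicates 2 and 4 the lower ones. In vehicle, RGS2 was lowest in replicate 3 at all 4 times, while with indacaterol at 1 and 2 h replicate 3 was second to replicate 1.

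**Figure D2:**
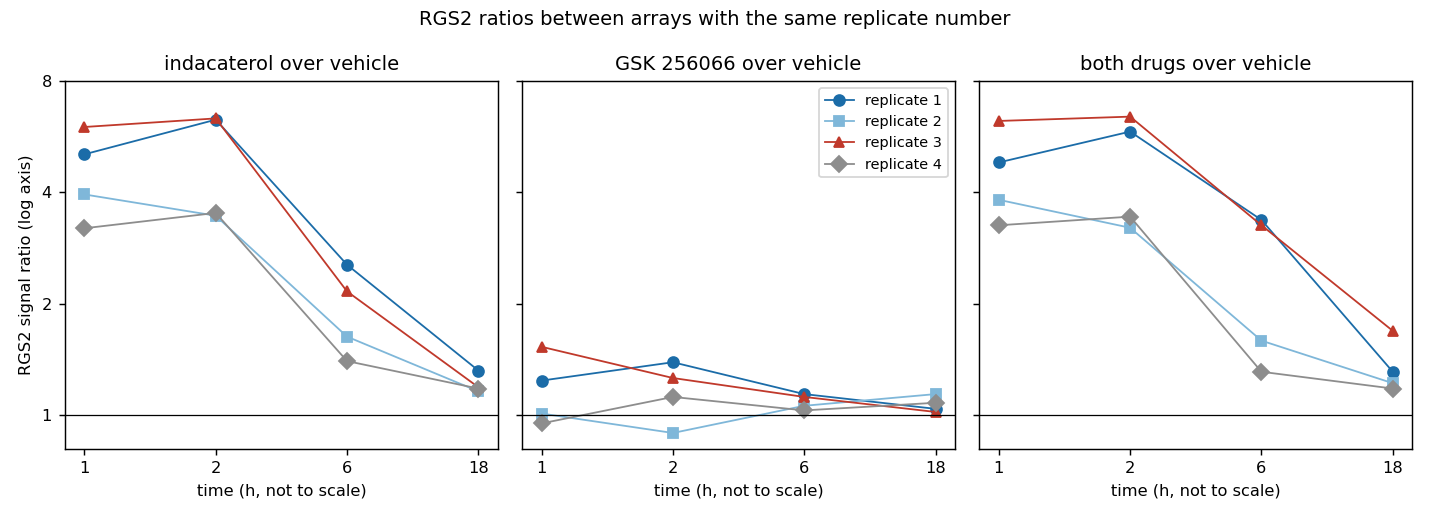
Ratio of RGS2 signal between a treated array and the vehicle array of the same replicate number and time, on a log axis, with 1 line per replicate number. Ratios with indacaterol or both drugs lie between 3.2 and 6.41 at 1 and 2 h and between 1.16 and 1.69 at 18 h, replicates 1 and 3 are above replicates 2 and 4 up to 6 h, and ratios with GSK 256066 alone stay between 0.895 and 1.53.

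GSK alone gave no called difference in RGS2 from vehicle. Its arrays read 2485, 1512, 1652 and 1581 at 1 h, 1699, 1093, 924.2 and 1175 at 2 h, 1729, 1489, 1021 and 1578 at 6 h, and 2141, 2144, 1101 and 1887 at 18 h. At each time they overlapped the vehicle arrays. Differences were 0.21, 0.20, 0.12 and 0.09 (each ± 0.28), with 95% intervals of -0.35 to 0.77, -0.36 to 0.76, -0.44 to 0.68 and -0.47 to 0.66, so rises beyond about 0.77 lie outside them. Limma called 0 of 6 members with GSK at any time and none had an unadjusted p under 0.05. Among all genes 0.00506% were called at 1 h and 0% at 2, 6 and 18 h.

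Adding GSK to indacaterol gave no called difference in RGS2 from indacaterol alone. Both drugs minus indacaterol was -0.01 at 1 h, -0.06 at 2 h, 0.21 at 6 h and 0.14 at 18 h, with 95% intervals of -0.57 to 0.55, -0.62 to 0.50, -0.35 to 0.77 and -0.42 to 0.70. At 6 h the ratio of both drugs to indacaterol was 1.32 and 1.51 in replicates 1 and 3, and 0.971 and 0.934 in replicates 2 and 4. Without the block, limma called 0 of 6 members and 0% of all genes at every time, and no member had an unadjusted p under 0.05. With it limma again called 0 members and 0% of genes, while RGS3 at 2 h and RGS17 at 6 h had unadjusted p-values of 0.0495 and 0.0234. The departure of both drugs from the sum of the single effects was -0.22, -0.26, 0.10 and 0.05 (each ± 0.40). For this departure, 0 members and 0% of genes were called without the block at any time, and no member had an unadjusted p under 0.05.

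Against GSK alone, both drugs gave higher RGS2 at 1 h (1.91 ± 0.28, limma adjusted p = 3.76e-05) and 2 h (1.96 ± 0.28, limma adjusted p = 8.31e-06). At those times 0.142% and 0.925% of all genes were called. At 6 h the difference was 1.00 ± 0.28 and limma called it with the block only (adjusted p = 0.118 without it and 9.34e-05 with it, where 0.359% and 3.06% of all genes were called). At 18 h it was 0.32 ± 0.28 and 0% of genes were called. This comparison shares its both-drugs arrays with the one against vehicle, so the 2 are not separate evidence.

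Over time in vehicle, RGS2 was lower at 2 h than at 1 h in 4 of 4 same-numbered ratios (0.608 to 0.814), but the difference of -0.55 ± 0.28 was not called by limma (adjusted p = 0.412). The differences at 6 h and 18 h from 1 h were -0.21 and 0.11. Of the 6 members 0 were called without the block at 2, 6 or 18 h against 1 h, where 0.192%, 1.21% and 1.58% of all genes were called. No member had an unadjusted p under 0.05 in that model. The 16 group means of RGS2 ran from 1056 ± 229 (SD, n = 4) in vehicle at 2 h to 6981 ± 2183 with indacaterol at 1 h. The 8 groups with indacaterol, alone or combined, held the 8 highest means, in the order of their times (1, 2, 6 and 18 h), and the ranges of all neighbours in that order overlapped.

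The indacaterol effect on RGS2 differed over the 4 times by limma's moderated F-test (F = 11.6, adjusted p = 0.00495; 0.268% of all genes were called). Without replicate 2 or replicate 4 that call was lost (adjusted p = 0.285 and 0.123). The step between 1 and 2 h was 0.08 ± 0.40, and that between 2 and 6 h was -1.31 ± 0.40, which did not pass on its own (limma adjusted p = 0.557). The effect of both drugs at 6 h minus that at 2 h was -1.04 ± 0.40, which limma called with the block (adjusted p = 0.0186; 0.738% of all genes called) and not without it (adjusted p = 1.0; 0.0354% called). Of 6 members 0 were called without the block in any step between neighbouring times, where 0.0152%, 0.0556% and 0.0152% of all genes were called for indacaterol and 0.0354%, 0.0354% and 0.0455% for both drugs, and RGS2 between 2 and 6 h with either treatment and RGS16 between 1 and 2 h with both drugs had an unadjusted p under 0.05.

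**Figure D3:**
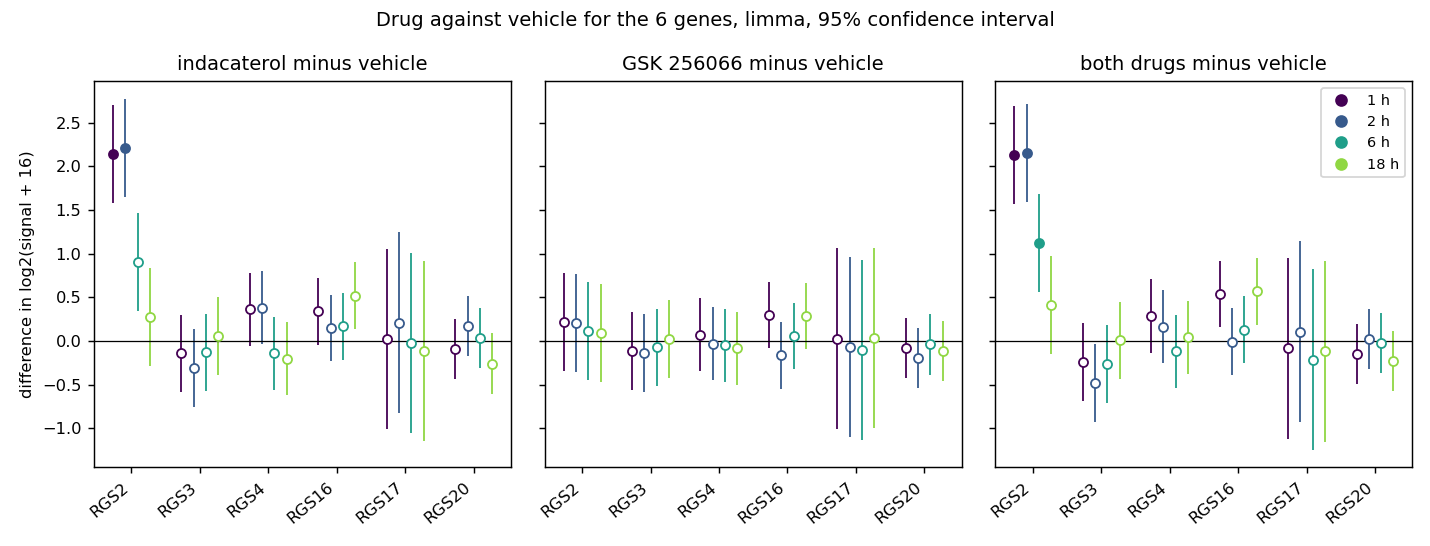
Difference in log2(signal + 16) from vehicle for the 6 genes, by treatment and time, with 95% confidence intervals from limma and filled markers where the adjusted p was under 0.05. RGS2 is filled at 1 and 2 h with indacaterol and at 1, 2 and 6 h with both drugs, and every other marker is open.

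RGS3, which limits Gi and Gq signals, was lower with both drugs at 2 h when same-numbered arrays were compared. Its vehicle signal at 2 h was 609.7, 466.2, 700.6 and 420.7, and that with both drugs 442.2, 381.7, 417.7 and 300.9. The ranges overlapped, yet each array with both drugs was below the vehicle array of its number, at ratios of 0.725, 0.819, 0.596 and 0.715. The difference of -0.48 ± 0.22 was not called by limma without the block (adjusted p = 0.654) and was called with it (adjusted p = 8.65e-05; 3.45% of all genes called). With the block and without replicate 3 the difference from vehicle was -0.40 (limma adjusted p = 0.0136). Against GSK at 2 h it was -0.34, likewise called with the block only (adjusted p = 0.0108; 3.46% of all genes called), with same-numbered ratios of 0.73, 1.17, 0.662 and 0.67. That call was lost with the block and without replicate 3, at -0.26 (limma adjusted p = 0.215).

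Indacaterol alone gave RGS3 signals of 526.2, 393.5, 444.2 and 378.6 at 2 h. They were below vehicle in 4 of 4 same-numbered ratios (0.634 to 0.9), and the difference of -0.31 ± 0.22 was not called by limma (adjusted p = 0.869). This comparison missed the pairing rule given below, with r from 0.0802 to 0.826 over the 4 numbers. The block gave a call there (limma adjusted p = 0.0243, with 3.8% of all genes called) that was lost without replicate 3 (limma adjusted p = 0.344). At 6 h both drugs gave -0.26 and at 18 h 0.01, neither called with or without the block. Its dimmer probe sets 220300_at and 232223_at gave -0.07 and 0.16 with both drugs at 2 h, neither called with or without the block. Their vehicle means at 2 h were 36.5 ± 23.2 and 23.7 ± 3.07 (SD, n = 4), and 220300_at was below vehicle in 3 of 4 same-numbered ratios (0.903, 0.693, 0.55 and 3.22). The probe set 220300_at was higher in vehicle at 18 h (103.3, 61.8, 137.0 and 63.5) than at 1 h (49.7, 47.4, 81.0 and 28.5), a difference of 0.66 ± 0.29 that limma called only with the block (adjusted p = 0.436 without it and 0.00992 with it over all probe sets, of which 5.38% were called).

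**Figure D4:**
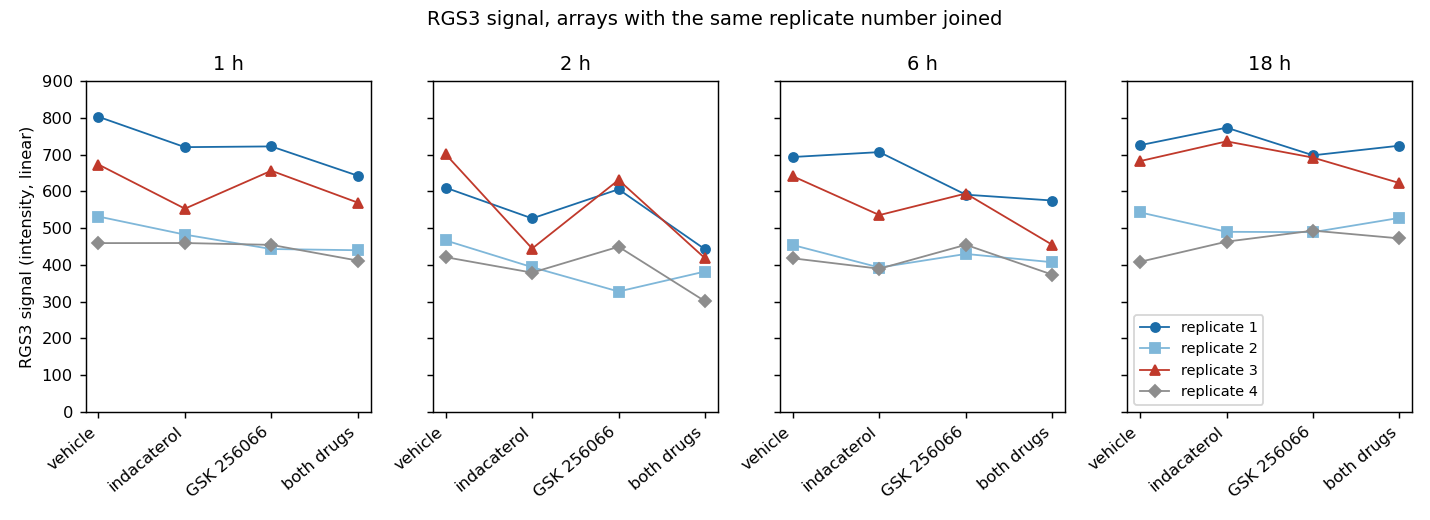
RGS3 signal (linear intensity, probe set 203823_at) on each array by treatment and time, with lines joining arrays of the same replicate number. At 2 h the arrays with both drugs lie between 300.9 and 442.2 and each is below the vehicle array of its number, and replicates 1 and 3 lie above replicates 2 and 4 in vehicle at all 4 times.

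RGS4, a regulator of Gi and Gq signals whose protein is short-lived, was not called in any comparison. Its probe set 204337_at read 65.4, 67.3, 68.4 and 37.0 in vehicle at 1 h and 114.8, 67.3, 82.7 and 60.6 with indacaterol. The groups overlapped, and the difference was 0.36 ± 0.21 at 1 h and 0.38 ± 0.21 at 2 h (limma adjusted p = 0.813 and 0.701). At 6 and 18 h indacaterol gave -0.14 and -0.21. Over the 64 arrays the signal ranged from 37.0 to 119.3, and those of its probe sets 204338_s_at and 204339_s_at from 7.6 to 31.1 and from 14.7 to 48.1.

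RGS16, which acts on Gi and Gq subunits, had its largest differences with both drugs at 1 h and 18 h. At 18 h it read 43.1, 40.3, 48.9 and 60.2 with vehicle, 78.3, 59.2, 84.0 and 81.8 with indacaterol and 56.4, 88.3, 94.5 and 79.2 with both drugs. Treated arrays were above the vehicle array of their number in 4 of 4 cases for each treatment, and the groups overlapped. The differences were 0.52 ± 0.19 and 0.57 ± 0.19, with unadjusted p under 0.05 and limma adjusted p-values of 0.852 and 0.644, and the block did not bring a call (0.389 and 0.180). At 1 h both drugs gave 123.3, 59.2, 105.6 and 90.9 against 64.6, 33.2, 53.5 and 95.5 with vehicle, a difference of 0.54 ± 0.19 (limma adjusted p = 0.295). Its probe sets 209324_s_at and 242212_at were not called either. At 18 h 209324_s_at was above the same-numbered vehicle array in 4 of 4 cases with indacaterol and 3 of 4 with both drugs. For 242212_at this held in 2 of 4 cases with each treatment, and its means were 60.4 with vehicle, 63.6 with indacaterol and 60.4 with both drugs. In all 16 groups the mean signal of RGS4 and of RGS16 stayed under 100, the level below which genes were left out in one alternative.

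RGS17, of the subfamily that acts on Gz, differed widely between replicate numbers, and no difference between treatments was called. Its single probe set read from 229.6 to 323.6 on the 16 arrays of replicate 3 and from 105.5 to 204.3 on those of replicate 1. On replicates 2 and 4 it read from 56.8 to 98.6 and from 67.5 to 107.7. No array of replicate 3 overlapped any other number, and the 2 lower sets lay almost wholly below replicate 1. Drug differences ran from -0.21 (both drugs at 6 h) to 0.21 (indacaterol at 2 h), each ± 0.51 without the block and ± 0.08 with it. Same-numbered ratios to vehicle were 0.918, 0.92, 0.743 and 0.821 in the first and 1.28, 1.39, 1.0 and 1.11 in the second. No drug difference was called by limma, with or without the block (adjusted p = 0.129 and 0.166 for these 2 with it). In vehicle RGS17 at 2 h against 1 h was -0.33, called with the block only (limma adjusted p = 0.0153, with 4.34% of all genes called). That comparison missed the pairing rule given below, with r from 0.0912 to 0.844 over the 4 numbers.

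RGS20, the relative of RGS17 that acts on Gz, lies on chromosome 8 from 53851795 to 53959303 (GRCh38.p14) and was also not called. Its brighter probe set, 210138_at, had group means from 281.9 ± 53.8 (SD, n = 4) with indacaterol at 18 h to 411.4 ± 78.1 with indacaterol at 6 h. At 18 h it read 362.6, 365.1, 295.6 and 323.2 with vehicle and 318.5, 295.4, 202.5 and 311.1 with indacaterol, lower in 4 of 4 same-numbered ratios. The groups overlapped and the difference of -0.26 ± 0.17 was not called (limma adjusted p = 1.0). The probe set 1569303_s_at was not called in any comparison.

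**Figure D5:**
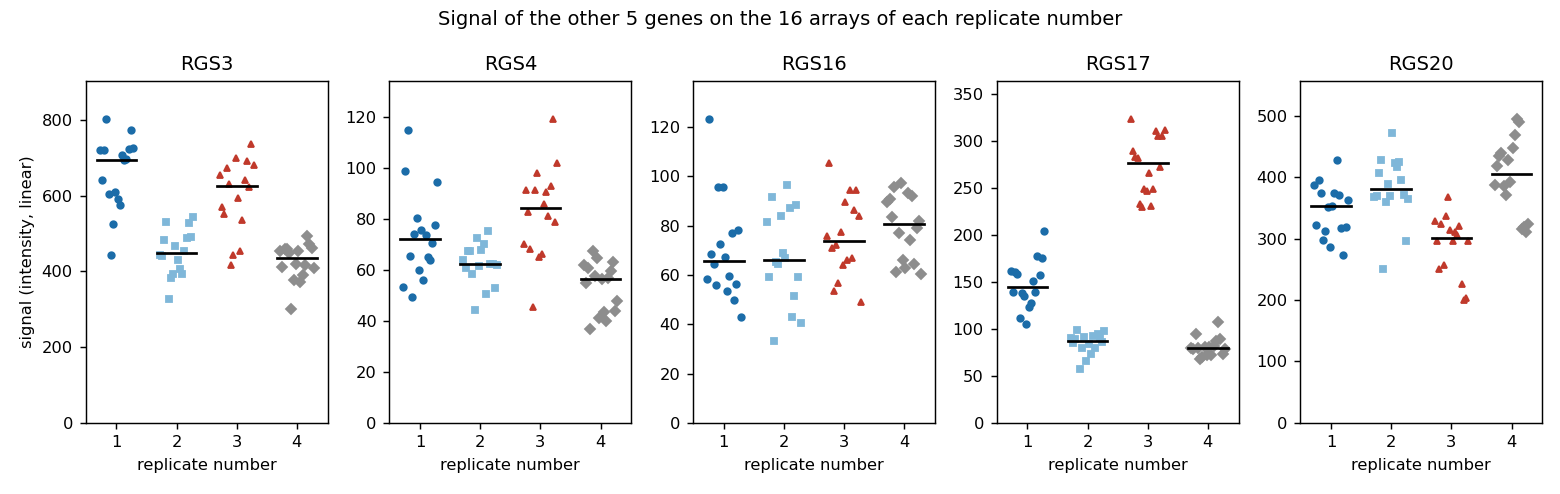
Signal (linear intensity) of RGS3, RGS4, RGS16, RGS17 and RGS20 on the 16 arrays of each replicate number, each array a marker and the median a bar. RGS17 separates replicate 3 (229.6 to 323.6) from the others, and RGS3 has medians of 695.6 and 626.6 in replicates 1 and 3 against 448.3 and 434.9 in replicates 2 and 4.

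The genes whose 16 group means followed RGS2 most closely, among 476 genes whose means ranged over at least 1 on the log2 scale, were PRDM1 (Pearson r = 0.984), SGK1 (0.963), SNAI2 (0.960), NFIL3 (0.948) and NR4A2 (0.947). PRDM1, SNAI2 and NFIL3 encode transcriptional repressors, SGK1 a kinase and NR4A2 an orphan nuclear receptor. These are descriptions over group means from the same arrays. Their indacaterol differences at 1 and 6 h were 2.56 and 0.70 for PRDM1, and 4.21 and 1.35 for NR4A2, beside 2.14 and 0.90 for RGS2.

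Of the other RGS genes, 14 of 15 listed were measured and limma called 0 in any drug comparison with vehicle, with at most 1 at an unadjusted p under 0.05 in each. Their median difference with indacaterol was -0.03 at 1 h and -0.04 at 6 h, beside -0.02 and -0.00 for all genes. The block called 2.31% of all genes for indacaterol and 5.27% for the combination at 6 h. Among these were RGS7 and RGS9, which act on Gi-class subunits in neurons and photoreceptors. RGS7 was below vehicle by 0.48 with indacaterol and 0.61 with both drugs (limma adjusted p = 0.00274 and 4.8e-05), and RGS9 by 0.43 and 0.36 (limma adjusted p = 0.0109 and 0.0272). In vehicle with the block, RGS7 was higher at 6 h than at 1 h by 0.40 and RGS9 lower by 0.37 (limma adjusted p = 0.011 and 0.0216). RGS10 was lower there than at 1 h by 0.29 at 6 h and by 0.25 at 18 h (limma adjusted p = 0.00444 and 0.0127). In these vehicle comparisons the block called 1389 of 19775 genes at 6 h and 1566 at 18 h. The medians of RGS7 and RGS9 were 158 and 55.3 in replicate 3 and 352 and 98.4 elsewhere. The 3 listed anchors of RGS proteins and the 9 alpha subunits of the Gi and Gq class had 0 called in any drug comparison with vehicle without the block, with at most 1 and 2 at an unadjusted p under 0.05. With the block and both drugs at 6 h, 1 of the 9 alpha subunits was called beside those 5.27% of all genes: GNAI3, a Gi alpha subunit, fell by 0.14 (limma adjusted p = 0.031).

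Among 7 phospholipase C beta and calcium effectors, limma called 1, ITPR1, a receptor through which inositol trisphosphate releases calcium. It rose at 6 h by 0.86 ± 0.15 with indacaterol (limma adjusted p = 0.000397) and 0.91 ± 0.15 with both drugs (limma adjusted p = 8.62e-05). In these comparisons 0.273% and 0.759% of all genes were called. With the block PLCB3, a phospholipase C that Gq activates, fell by 0.29 with both drugs at 6 h (limma adjusted p = 0.0276, with 5.27% of all genes called). Of 24 measured receptors that couple to Gq or Gi, of 26 listed, 0 were called without the block in a drug comparison with vehicle, with at most 3 at an unadjusted p under 0.05 in each. In the comparisons with vehicle where replicate numbers paired the arrays, the calls among the 24 with the block were 2 up with both drugs at 2 h (3.45% of all genes called), 1 down with indacaterol at 6 h (2.31%), 2 up and 1 down with both drugs at 6 h (5.27%), and 1 down with both drugs at 18 h (0.405%). BDKRB2, the bradykinin receptor, and S1PR3, a receptor for sphingosine phosphate, rose with both drugs at 2 h by 0.84 and 0.58 (limma adjusted p = 0.00409 and 0.0233), and OXTR, the oxytocin receptor, fell at 6 h by 0.66 with indacaterol and 0.72 with both drugs (limma adjusted p = 1.15e-06 and 8.8e-08) and at 18 h by 0.38 with both drugs (limma adjusted p = 0.0352). The other calls at 6 h with both drugs were BDKRB2, higher by 0.68, and LPAR1, a receptor for lysophosphatidic acid, higher by 0.41 (limma adjusted p = 0.0259 and 0.0103). The medians of the receptor list in those 4 comparisons were 0.03, 0.01, 0.08 and 0.02, beside -0.02, -0.00, 0.00 and 0.02 for all genes. The signal of BDKRB2, S1PR3 and OXTR differed with the replicate number, with medians of 98.8, 1700 and 412 in replicate 3 and 32.7, 633 and 1045 elsewhere. LPAR1 had medians of 1946 and 1954. Both medians of BDKRB2 were under 100. These receptor calls, and those of RGS7, RGS9, RGS10, GNAI3, ITPR1 and PLCB3, were not examined without replicate 3.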

How the data were processed

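RNA was hybridised to Affymetrix arrays with 1 biotin label. The authors deposited linear probe-set intensity values, made with PLIER in the Transcriptome Analysis Console 4, per the submitters' processing notes; the settings are not given in the sources used here. Values were used as log2(signal + 16). Symbols came from the platform annotation, where 41091 probe sets had 1 symbol, 1801 several and 11721 none, and 62 controls were left out. For 41037 probe sets the symbol was then set to the RefSeq symbol of the same gene ID. The probe set with the highest mean stood for a gene. Limma 3.58.1 (R 4.3.3) fitted a mean for each of 16 groups, 48 residual degrees of freedom, with two-sided moderated tests and Benjamini-Hochberg adjustment over 19775 genes; other probe sets were tested over all probe sets. The model without the block was tried on simulated data for indacaterol against vehicle at 1 h. Those arrays were drawn independently, so the shared deviations of same-numbered arrays and the block were not tested. The number of arrays limits the precision. The members and gene lists were chosen with earlier results of these data known. The members were always named, list genes where called, and the 5 genes most like RGS2.

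Replicate numbers were taken to pair arrays, and used as a block, where arrays sharing a number departed from the means of their groups in a correlated way, with r above 0.1 for each of the 4 numbers. This held for indacaterol and GSK at 1 h, for both drugs at 2 h, for every comparison of treatments at 6 and 18 h and for vehicle at 6 and 18 h against 1 h, as a property of the data and not of the labels. It did not hold for indacaterol or GSK against vehicle at 2 h or both drugs at 1 h.

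Alternatives were pseudocounts of 1 and 64, quantile and median scaling, leaving out genes dimmer than 100 in every group, every probe set, the compared groups alone, a trended robust prior, the block, and leaving out each replicate number and each array.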

Additional observations from a re-analysis of the deposited data

Results flagged for a closer look

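In 96 groups of 4 arrays (6 genes, 16 groups each), 4 had 1 array far from the other 3 on the log2 scale, where chance gives about 1 in 20 groups. RGS2 in vehicle at 6 h was lowest in replicate 3, at 910.1. RGS20 with indacaterol at 18 h was lowest in replicate 3, at 202.5. RGS4 with GSK at 18 h was highest in replicate 3, at 93.0, and RGS4 in vehicle at 1 h was lowest in replicate 4, at 37.0.

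The indacaterol effect on RGS2 differed between times by the moderated F-test of limma (adjusted p = 0.004951). The effect of both drugs on RGS2 at 6 h minus that at 2 h was -1.038 on the log2 scale, which passed with the replicate number as a block.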

How the results depend on the processing

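The rises of RGS2 at 1 and 2 h, under indacaterol alone or combined with GSK, kept their direction and call in every alternative run, from 1.94 to 2.36 on the log2 scale. Other limits concern 6 h. For both drugs at 6 h the compared groups alone gave 1.12 without a call (limma adjusted p = 0.324), and leaving out 1 replicate number or array gave 0.84 to 1.36 (limma adjusted p = 0.0151 to 0.278). For indacaterol at 6 h, the replicate block gave a call at 0.90 and, without replicate 3, at 0.84 (limma adjusted p = 0.00501). The F of the indacaterol effect over times ran from 7.16 to 15.9 when 1 replicate number or array was left out. With the block there were 4 calls over the 4 times for indacaterol against vehicle and 4 for both drugs against GSK, each being RGS2 at 1, 2 and 6 h and RGS3 at 2 h (2 calls each without it, both of RGS2), where 1.04%, 3.8% and 2.31%, and 0.48%, 3.46% and 3.06%, of all genes were called at 1, 2 and 6 h. There was 1 call for vehicle against 1 h and 1 for the indacaterol effect between times (0 each without it), and these last counts were also 1 with the block and without replicate 3. Not all of these comparisons met the pairing rule of r above 0.1 for each number. RGS3 with indacaterol at 2 h, RGS17 in vehicle at 2 h against 1 h and RGS2 with indacaterol between 2 and 6 h missed it. They were called only with the block, at -0.31, -0.33 and -1.31 (for the last, limma adjusted p = 0.000778, with 0.819% of all genes called). The block also called 3 of 24 receptors up with indacaterol at 2 h, BDKRB2, S1PR3 and HRH1 (0.98, 0.60 and 0.52). No called difference of a member changed sign. The uncalled RGS2 difference with GSK did when 1 replicate number or array was left out, running from -0.06 to 0.28 at 6 h and from -0.10 to 0.32 at 18 h. The causes were not tested. Scaling moved the median of all genes by less than 0.1 in every comparison. Leaving out genes dimmer than 100 removed RGS4 and RGS16, whose low signal limits what could be seen.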
